A study of Mus musculus with 23 samples.

Results

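T cell receptor (TCR) transcripts of mouse Nras-mutant melanoma treated with BGB-283, an inhibitor of RAF kinases, were compared with those of untreated tumours at the early time point, labelled D4. The comparison takes 6 of the 23 libraries in the series: 3 labelled as given no drug (control) and 3 given BGB-283 alone. Libraries were chosen by their labels, and every alpha (TRA) and beta (TRB) entry in them was used. Both groups carry the same model, a syngeneic tumour derived from an Nras Q61R line that was exposed to ultraviolet light to add mutations. Other libraries of the series were given trametinib or both drugs, or were taken at D11. What day 0 was, whether each library is a separate animal and whether T cells were enriched is not in the labels. The p-values below therefore measure the spread between libraries, which may be technical. The 6 libraries together held 4770 of the 35389 TRB clonotypes of the series and 4285 of the 29047 TRA clonotypes.

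A T cell builds its receptor by joining one V and one J segment in each chain, with a D segment between them in the beta chain, and the join, called the CDR3, is the loop that differs most between cells and contacts the presented peptide. Cells descended from one T cell share the receptor, so a clone that has multiplied appears as one receptor with many transcripts, while many receptors with few transcripts each mark a diverse population. Receptors of a chain with the same V, the same J and the same CDR3 residues are counted together as 1 clonotype. The number of clonotypes is called richness. Because RNA was measured in bulk, more cells of a clone and more receptor RNA per cell cannot be told apart, and alpha and beta chains of one cell are not linked.

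The largest TRB clonotype of each library shows what is being counted. These CDR3s are given from the conserved cysteine at the end of the V segment to the phenylalanine of the J segment, and each led its own library.
Control library 1, TRBV15 with TRBJ1-5: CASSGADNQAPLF
Control library 2, TRBV16 with TRBJ2-5: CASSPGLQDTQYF
Control library 3, TRBV12-1 with TRBJ2-7: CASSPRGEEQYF
BGB-283 library 1, TRBV19 with TRBJ2-7: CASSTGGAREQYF
BGB-283 library 2, TRBV16 with TRBJ2-3: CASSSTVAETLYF
BGB-283 library 3, TRBV16 with TRBJ2-7: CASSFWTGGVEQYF
The control leaders held 10.2%, 25% and 30.8% of their library's TRB counts, and the BGB-283 leaders 8.83%, 43.6% and 14.6%. Of these 6 clonotypes, the leader of control library 2 was also listed in another of the 6 libraries, at 1.87% in control library 3. The other five were each listed in 1 of the 6.

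In the alpha chain the leaders were again different in every library. The leader of control library 3 joined TRAV13D-1 to TRAJ5, has a CDR3 of 15 residues and held 18.8% of TRA counts. That of BGB-283 library 2 joined TRAV14-2V14N-2 to TRAJ42, has a CDR3 of 14 residues and held 46.3%. The others are shown because they carry the largest share of their library.
Control library 1, TRAV13N-1 with TRAJ9: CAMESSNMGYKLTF
Control library 2, TRAV7D-2 with TRAJ34: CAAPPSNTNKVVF
BGB-283 library 1, TRAV14-3 with TRAJ17: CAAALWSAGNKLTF
BGB-283 library 3, TRAV7D-2 with TRAJ9: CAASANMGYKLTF
They held 7.48% and 13.6% in control libraries 1 and 2, and 10.2% and 13.6% in BGB-283 libraries 1 and 3. Some recurred at lower shares: the leader of BGB-283 library 2 held 1.14% of control library 3, that of control library 1 held 0.0109% of BGB-283 library 2, and that of control library 3 was listed in 3 of the 6 libraries. Joint names such as TRAV14-2V14N-2 stand for near-identical V genes of the duplicated mouse alpha locus that the authors' caller did not separate, so counts of single TRAV names are uncertain. In BGB-283 library 2 the leading beta and alpha clonotypes held nearly equal shares of their chains, 43.6% and 46.3%. Whether they come from the same cells was not measured.

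Depth differed widely between the libraries. TRB counts were 34553, 94814 and 186652 in control libraries 1 to 3 and 91419, 223264 and 169160 in BGB-283 libraries 1 to 3. TRA counts were 45796, 137563 and 227206 in control and 144159, 358778 and 283323 in BGB-283. The ratio of TRA to TRB counts was 1.33, 1.45 and 1.22 in control and 1.58, 1.61 and 1.67 in BGB-283, so each BGB-283 library held relatively more alpha counts than every control library. The values pile up at multiples of 20 (689 values of exactly 20, against 91 of 19 and 55 of 21), so an estimated number of molecules, each count divided by 20 and rounded up, was used beside the counts. On that scale TRB depth ran from 1816 to 11845 and TRA depth from 2399 to 18482. Among TRB counts of 3 to 20, 39.7%, 43.5% and 28.1% were exactly 20 in control and 23.1%, 9.71% and 8.69% in BGB-283. The groups do not overlap in that share. Among TRA counts the shares were 38.9%, 32.3% and 25.9% against 26.7%, 11.5% and 6.90%, which overlap. The part of these shares in the results on small clonotypes was not tested. The molecule scale cannot show it, since it keeps each count below 20 as 1 molecule. The removal of counts below 20, given further on, was not brought to equal depth.

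More receptors were found in every BGB-283 library than in any control library, in both chains. TRB clonotypes numbered 214, 416 and 696 in control and 833, 1370 and 1318 in BGB-283, a mean difference of 1.53 on the log2 scale (SE 0.54, n = 3 against 3, 2.90-fold). TRA clonotypes numbered 265, 421 and 684 in control and 787, 1126 and 1144 in BGB-283, a difference of 1.24 (SE 0.43, 2.37-fold). The groups do not overlap in either chain. With 3 libraries against 3, the two-sided exact permutation test cannot give less than p = 0.1, and both richness measures reached that value. Groups that do not differ therefore fail to overlap in a given measure with a probability of 0.1. In all, 60 repertoire measures were tested in this way. None passed the threshold of 0.05 (percent called 0), the smallest Benjamini-Hochberg adjusted exact permutation p was 0.4, and the groups did not overlap in 15 measures (25% of the 60). The 60 measures are not independent, since several restate richness and both chains come from the same libraries. That share is therefore not a count of separate results and cannot be set against 0.1.

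Libraries of like depth can be set side by side. BGB-283 library 1 and control library 2 had 91419 and 94814 TRB counts, and held 833 and 416 TRB clonotypes and 787 and 421 TRA clonotypes. BGB-283 library 3 and control library 3 had 169160 and 186652 TRB counts, and held 1318 and 696 TRB clonotypes. In both pairs the treated library was the richer in TRB at slightly lower TRB depth. Its TRA depth was the higher in both, at 144159 against 137563 and 283323 against 227206 TRA counts. After all libraries were thinned to 34553 TRB counts, expected clonotypes were 214, 408.6 and 648.0 in control and 818.7, 1177.7 and 1192.6 in BGB-283. Thinned to 45796 TRA counts, they were 265, 405.8 and 638.8 in control and 766.2, 967.5 and 1006.6 in BGB-283. The groups stayed apart, with log2 differences of 1.45 (SE 0.50) in TRB and 1.15 (SE 0.39) in TRA (exact permutation p = 0.1 in each).

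The gap was smaller on the molecule scale, still without overlap. At 1816 estimated TRB molecules, clonotypes numbered 214, 280.9 and 313.2 in control and 549.2, 433.6 and 523.7 in BGB-283. At 2399 estimated TRA molecules they numbered 265, 273.1 and 324.4 in control and 496.1, 390.5 and 461.7 in BGB-283. The lowest treated library was then library 2, whose leading clonotypes held 43.6% of TRB and 46.3% of TRA counts.

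**Figure D1:**
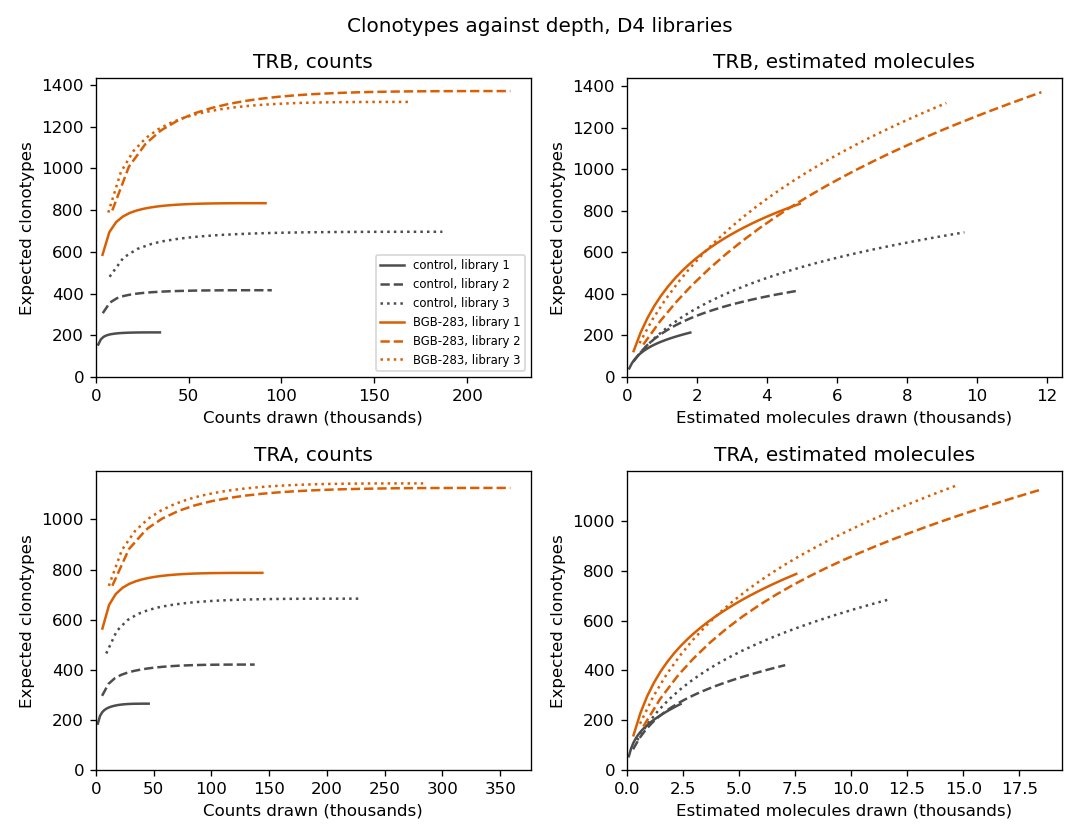
Expected clonotypes (vertical axis) against counts (left) or estimated molecules (right) drawn from each D4 library, for TRB (top) and TRA (bottom), axes marked in units of 1000, with control in grey and BGB-283 in orange. At the depth of the shallowest library the 3 BGB-283 curves lie above the 3 control curves. At 34553 TRB counts they read 818.7 to 1192.6 against 214 to 648.0.

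The groups also stayed apart without near copies of large clonotypes. A receptor 1 residue away from a far larger one can be a read error or a receptor of its own. Clonotypes 1 residue away from one with the same V, J and length and at least 10 times the count in the same library were therefore removed, a step chosen after the data were seen. This took away 14% to 18.7% of TRB clonotypes in control and 6.60% to 12.7% in BGB-283. It took 21.5% to 25.4% of TRA clonotypes in control and 11.3% to 22.6% in BGB-283. What was left was 184, 340 and 566 TRB clonotypes in control and 778, 1196 and 1153 in BGB-283, and 208, 314 and 521 TRA clonotypes against 698, 948 and 886. Removing every count below 20 instead left 167, 338 and 502 TRB clonotypes in control and 610, 738 and 740 in BGB-283.

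The groups separated in the number of clonotypes below the largest ones. Clonotypes were sorted by their share of the chain's counts into 4 classes: 1% or more, 0.1 to under 1%, 0.01 to under 0.1%, and under 0.01%. In the 0.01 to under 0.1% class, TRB clonotypes numbered 82, 253 and 420 in control and 488, 590 and 692 in BGB-283. The same class held 110, 230 and 321 TRA clonotypes in control and 444, 483 and 516 in BGB-283. Of the 4 classes by share of counts, this one separated the groups in clonotype number, in both chains (exact permutation p = 0.1 in each, the smallest possible). Its share of TRB counts was 3.74%, 10.7% and 13.5% in control and 19.6%, 18.1% and 23.1% in BGB-283, and its share of TRA counts was 4.82%, 8.76% and 11.3% against 16.5%, 14.5% and 17.0%. Neither share overlaps between the groups.

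Classes by estimated molecules, which unlike shares grow with depth, separated the groups more widely in number. Clonotypes of 2 to 5 molecules numbered 69, 169 and 271 in TRB in control and 344, 497 and 479 in BGB-283, and 62, 128 and 229 against 259, 371 and 369 in TRA. Those of 6 to 20 molecules numbered 49, 81 and 111 against 177, 136 and 164 in TRB, and 70, 99 and 121 against 208, 207 and 213 in TRA. Clonotypes of 1 molecule numbered 78, 138 and 270 against 290, 700 and 633 in TRB, without overlap, and 108, 158 and 282 against 281, 494 and 493 in TRA, which overlap. The share of all estimated molecules in the class of 2 to 5 did not overlap in TRB, and in TRA it did, at 7.71%, 5.54% and 5.99% against 10.2%, 6.41% and 7.81%.

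In the smallest class, under 0.01%, TRB clonotypes numbered 8, 50 and 190 in control and 123, 722 and 528 in BGB-283, and BGB-283 library 1 lay below control library 3. TRA clonotypes of that class numbered 28, 91 and 287 against 165, 586 and 547, with the same overlap. This class depends most on depth, since the lowest count listed, 3, is already 0.00868% of the TRB counts of control library 1. Large clonotypes overlapped in number between the groups. At 1% or more, TRB clonotypes numbered 22, 16 and 14 in control and 10, 12 and 15 in BGB-283, and TRA clonotypes 21, 17 and 15 against 15, 11 and 20. At 0.1 to under 1%, TRB gave 102, 97 and 72 in control and 212, 46 and 83 in BGB-283, so that BGB-283 library 1 alone lay above the controls.

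**Figure D2:**
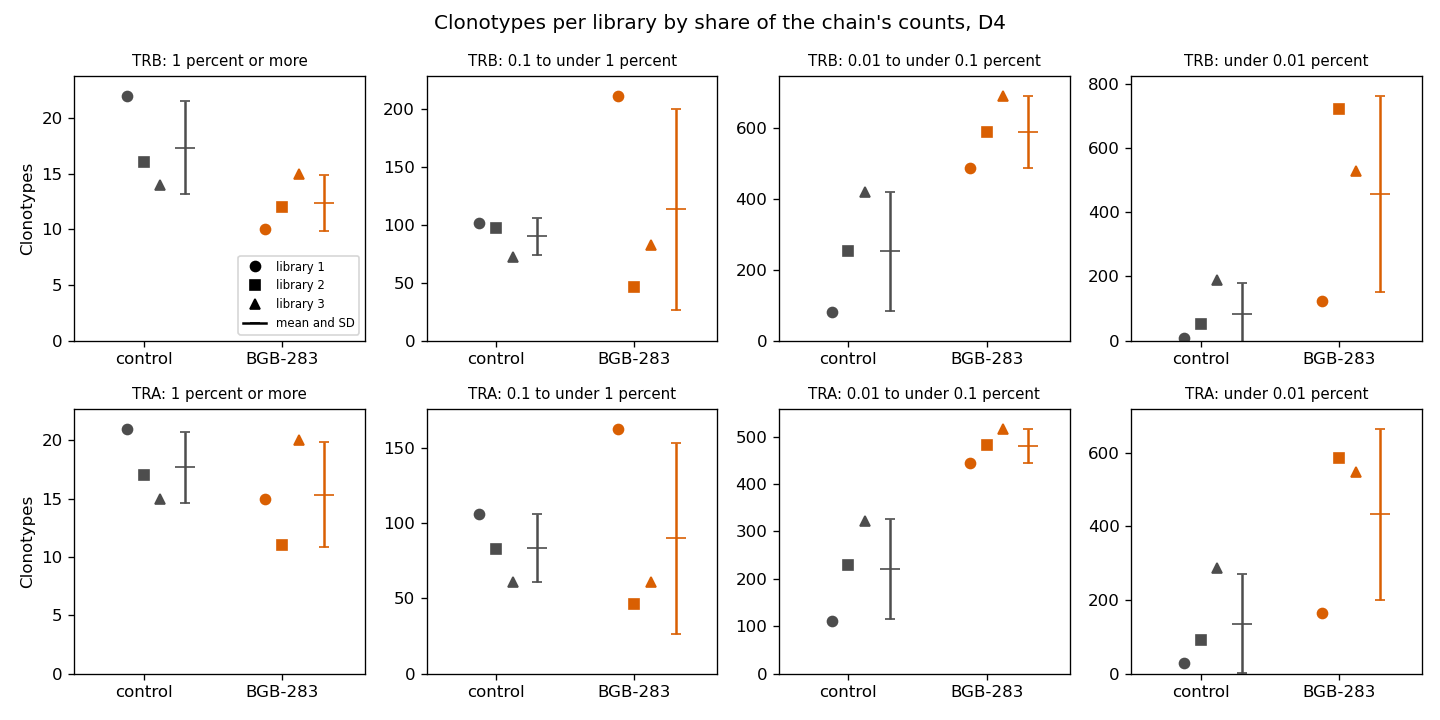
Number of clonotypes per D4 library (vertical axis) in 4 classes of share of the chain's counts, for TRB (top) and TRA (bottom); points are libraries and bars the mean ± SD of 3, cut at 0 where they would fall below it. Only in the class of 0.01 to under 0.1% do the control and BGB-283 points separate in both chains, 82 to 420 against 488 to 692 in TRB and 110 to 321 against 444 to 516 in TRA.

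The top of the repertoire did not separate the groups. The 10 largest TRB clonotypes held 46.2%, 57.7% and 59.0% of counts in control and 34.0%, 62.2% and 47.7% in BGB-283, a difference of -6.35 percentage points (SE 9.11, exact permutation p = 0.7). The 10 largest TRA clonotypes held 39.5%, 61.2% and 60.4% in control and 44.1%, 66.4% and 47.0% in BGB-283 (-1.23 points, SE 9.97, exact permutation p = 1). The number of TRB clonotypes needed to reach 50% of counts was 13, 7 and 7 in control and 46, 4 and 12 in BGB-283, so the highest and the lowest of the 6 values were both in treated libraries. For TRA the numbers were 17, 7 and 6 in control and 15, 2 and 13 in BGB-283. The sign of the difference in the 10 largest depended on single libraries. Without BGB-283 library 1 it was 0.642 points in TRB, and in TRA it turned to between 1.52 and 2.97 points without any one of control libraries 2 and 3 and BGB-283 libraries 1 and 3.

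Further down the ranks the curves parted. The 100 largest TRB clonotypes held 93.2%, 87.6% and 86.9% of counts in control and 62.9%, 82.0% and 74.7% in BGB-283, a difference of -16.0 points (SE 5.91). The 100 largest TRA clonotypes held 91.2%, 90.9% and 89.2% in control and 73.6%, 86.5% and 82.6% in BGB-283, -9.50 points (SE 3.89). Every treated library lay below every control library in both chains (exact permutation p = 0.1 in each). At D11 the 100 largest TRB clonotypes held a mean of 77.3% in control and 77.3% in BGB-283. Those of TRA held 77.7% and 80.7%. The D4 difference was not told apart from that at D11 (permutation of treatment within day, p = 0.220 in TRB and 0.135 in TRA, adjusted p = 0.993 in each). At D4 the median TRB clonotype had 44, 43 and 37.5 counts in control and 37, 20 and 22 in BGB-283. In TRA the medians overlapped, at 40, 43 and 32 against 40, 31.5 and 31.

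**Figure D3:**
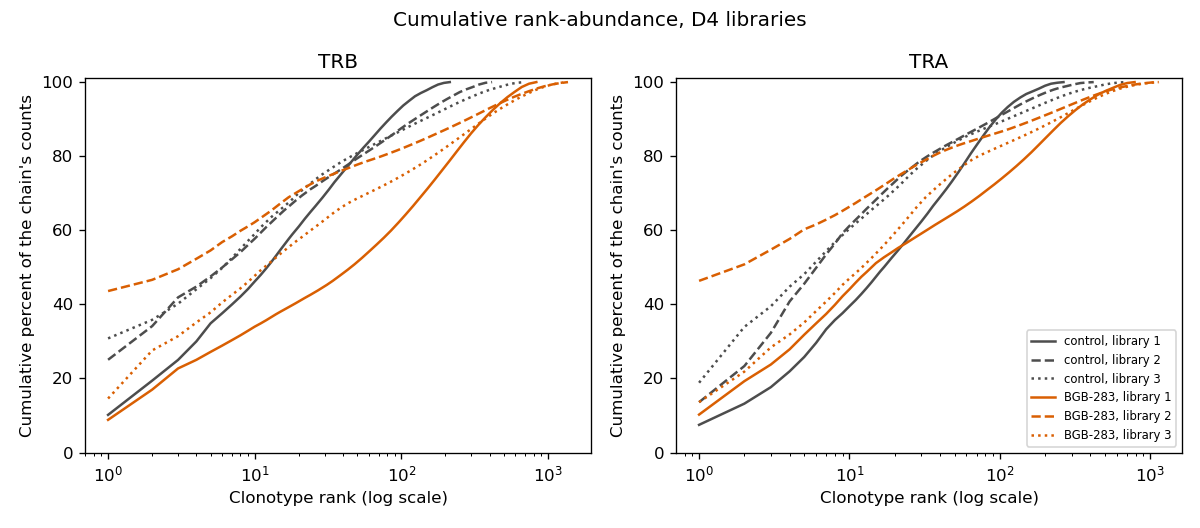
Cumulative percent of the chain's counts (vertical axis) against clonotype rank on a log scale, one line per D4 library, for TRB (left) and TRA (right). Grey control and orange BGB-283 lines cross at low ranks, and at rank 100 the control lines stand at 86.9% to 93.2% in TRB and the BGB-283 lines at 62.9% to 82.0%.

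V-J pairs describe how widely the segments are combined. TRB clonotypes used 104, 135 and 160 V-J pairs in control and 175, 188 and 203 in BGB-283, a log2 difference of 0.52 (SE 0.19, 1.44-fold). TRA clonotypes used 181, 271 and 407 pairs in control and 512, 644 and 622 in BGB-283 (1.12, SE 0.35, 2.17-fold). Neither chain overlaps between the groups (exact permutation p = 0.1 in each). A library with more clonotypes fills more pairs, so the same number of clonotypes was drawn from each library. With 214 TRB clonotypes drawn, the pairs numbered 104, 101.4 and 94.7 in control and 103.7, 97.4 and 103.6 in BGB-283, which overlap. With 265 TRA clonotypes drawn, they numbered 181, 187.2 and 194.2 in control and 217.6, 210.2 and 205.9 in BGB-283, which still do not overlap. Near copies add clonotypes without adding pairs, and they were kept in these draws. They made up 21.5% to 25.4% of TRA clonotypes in control and 11.3% to 22.6% in BGB-283. Their part in this gap was not tested.

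Of the 288 combinations of the 24 TRBV and 12 TRBJ segments, 200 appeared in a control library and 234 in a BGB-283 library. All 3 control libraries held 71 of them and all 3 BGB-283 libraries 140, with 65 in all 6. The 11 pairs found in all 3 BGB-283 libraries and no control library have no counterpart, as 0 pairs were in all 3 control libraries and no BGB-283 library. In TRA, 704 pairs appeared in a control library and 1234 in a BGB-283 library, with 43 in all 3 BGB-283 libraries alone and 1 in all 3 control libraries alone. These numbers were not thinned to equal richness.

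**Figure D4:**
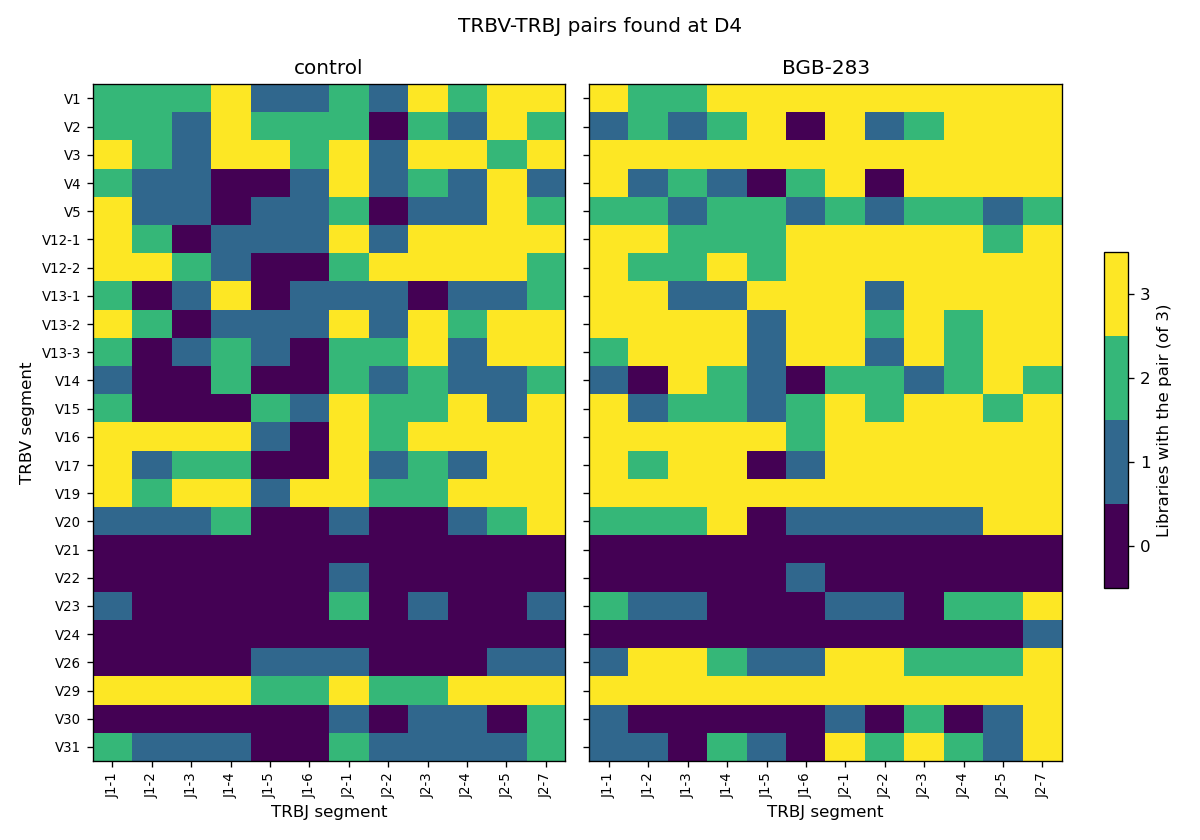
TRBV segments (rows) against TRBJ segments (columns), coloured by the number of D4 libraries, 0 to 3, in which the pair was found, for control (left) and BGB-283 (right). The BGB-283 panel has 140 pairs in all 3 libraries and the control panel 71, and the row of TRBV26 has 5 pairs in control, each in 1 library.

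TRBV26 had the smallest p of the beta V segments, by clonotype number and by counts. Known in older naming as Vbeta3, it is one of the beta segments whose T cells are deleted in mouse strains that carry certain endogenous retroviral superantigens. TRBV26 was found in 2, 1 and 2 clonotypes in control and 18, 23 and 24 in BGB-283, and it made up 0.935%, 0.240% and 0.287% of TRB clonotypes in control against 2.16%, 1.68% and 1.82% in BGB-283. With each clonotype counted once, edgeR's quasi-likelihood test gave a log2 difference of 2.27 (SE 0.57, adjusted p = 0.00200) for TRBV26. In that test 2 of 20 TRBV segments passed (10% called), the other being TRBV12-1, which fell by 0.68 on the log2 scale (SE 0.23, adjusted p = 0.0409). TRBV26 kept an adjusted p under 0.05 in 5 of 6 fits that left out 1 library (without control library 3 it was 0.107) and with near copies removed (1.99, adjusted p = 0.0328). TRBV12-1 did so in 2 of 6 and lost the call with near copies removed (-0.20, adjusted p = 0.649). Superantigen sensitivity is not particular to TRBV26. TRBV12-1, TRBV12-2 and TRBV15 are also among the sensitive segments, and their differences had the opposite sign. They are not the full list, so no direction is given for sensitive segments as a set. TRBV12-2 gave -0.40 (SE 0.22) and TRBV15 -0.64 (SE 0.34), with an edgeR adjusted p of 0.291 for each.

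Counting each clonotype once was an alternative to the test on summed counts, in which 0 of 24 TRBV segments passed (0% called, with 5 at an unadjusted p under 0.05, and 3 called by DESeq2). By counts TRBV26 held 0.663%, 0.0717% and 0.185% in control and 1.97%, 1.69% and 0.782% in BGB-283, a log2 difference of 2.28 (SE 0.80, edgeR adjusted p = 0.126, DESeq2 adjusted p = 0.0238). The groups do not overlap. The largest TRBV26 clonotype took 17.3%, 66.5% and 20.6% of the segment's counts in BGB-283. In library 2 it was TRBV26 with TRBJ1-4, 1.12% of all TRB counts.
The leading TRBV26 clonotype in BGB-283 library 1: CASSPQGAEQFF
The leading TRBV26 clonotype in BGB-283 library 2: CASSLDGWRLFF
The leading TRBV26 clonotype in BGB-283 library 3: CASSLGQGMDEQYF
They are shown because they differ from library to library: each was listed in 1 of all 23 libraries. TRBV26 was joined to 6, 10 and 10 different TRBJ segments in BGB-283 and to 2, 1 and 2 in control. At D11 it made up 1.01% and 1.87% of TRB clonotypes in the control libraries and 2.29%, 1.97% and 2.82% in the BGB-283 libraries. The test of the D4 difference against the D11 difference gave 1.70 on the log2 scale (unadjusted p = 0.0295, edgeR adjusted p = 0.169 over TRBV segments).

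TRBV19, or Vbeta6, was the other beta segment that did not overlap by counts. It held 5.59%, 2.49% and 4.83% in control and 17.8%, 9.89% and 11.4% in BGB-283 (log2 1.6, SE 0.75, edgeR adjusted p = 0.215). With each clonotype counted once the difference was 0.31 (SE 0.19, edgeR adjusted p = 0.291). TRBV26 and TRBV19 are 8.33% of the 24 segments, near the probability of 0.1 with which groups that do not differ separate.
TRBV16, or Vbeta11, held the highest mean share in both groups, with 8.97%, 35.9% and 19.9% in control and 14.8%, 55.7% and 28.6% in BGB-283 (log2 0.61, SE 0.67, edgeR adjusted p = 0.647). TRBV3 was among the 3 highest in both groups, at 7.52%, 24.9% and 8.51% in control and 7.93%, 3.58% and 22.4% in BGB-283.

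Several other beta values lay high in 1 library. TRBV12-1 held 5.70%, 1.96% and 33.4% of counts in control and 4.31%, 1.46% and 1.90% in BGB-283 (log2 -2.42, SE 0.95, edgeR adjusted p = 0.151), and its one high library is that led by a TRBV12-1 clonotype of 30.8%. TRBV15 held 12.4%, 0.826% and 3.54% against 3.10%, 0.770% and 1.73%, with its leading clone of 10.2% in control library 1. TRBV23 held 0.912%, 0.0338% and 0.112% against 8.94%, 0.1% and 0.119%, and one clonotype with TRBJ2-7 made 8.16% of BGB-283 library 1. Without that library the TRBV23 difference turned from 3.12 to -1.68 on the log2 scale. TRBV14 held 0.396%, 1.09% and 3.43% against 0.520%, 0.223% and 0.627% (log2 -1.85, SE 0.83, edgeR adjusted p = 0.215).

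No beta J segment passed. Of 12 TRBJ segments, 0 passed edgeR's test by counts (0% called, 1 at an unadjusted p under 0.05, 0 called by DESeq2) and 0 with each clonotype counted once (0% called, 0 at an unadjusted p under 0.05). The groups overlapped in all 12 by counts. The largest difference was that of TRBJ1-5, at 10.9%, 0.447% and 0.958% in control and 1.05%, 0.477% and 1.62% in BGB-283 (log2 -1.97, SE 0.89, edgeR adjusted p = 0.339), where the high library is that led by a TRBJ1-5 clone. TRBJ1-3 held 1.02%, 1.25% and 0.986% against 3.49%, 0.700% and 3.55%, and TRBJ2-2 1.02%, 1.64% and 0.949% against 3.39%, 3.83% and 1.19%. The TRBJ1 cluster, the J segments beside the first beta constant gene, made up 32.7%, 30.5% and 29.2% of TRB clonotypes in control and 29.4%, 28.9% and 29.2% in BGB-283, with TRBJ2 making up the rest.

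Alpha segments passed rarely. By counts 0 of 118 TRAV and 0 of 41 TRAJ segments passed edgeR's test (0% called in each, with 15 and 7 at an unadjusted p under 0.05), while DESeq2 called 12 and 2. With each clonotype counted once, 1 of 56 TRAV segments (1.79% called) and 0 of 40 TRAJ segments (0% called, 7 at an unadjusted p under 0.05) passed. The one was TRAV13D-1, which fell by 1.17 on the log2 scale (SE 0.33, edgeR adjusted p = 0.0376). It kept the call in 3 of 6 fits without 1 library and lost it with near copies removed (-0.32, adjusted p = 0.831). Its clonotypes numbered 9, 18 and 41 in control and 9, 22 and 35 in BGB-283, so their number overlapped between the groups while all TRA clonotypes were more numerous in BGB-283.

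TRAJ5 and TRAJ18 were among the 5 of 41 TRAJ segments (12.2%) whose groups did not overlap by counts. That share is near the probability of 0.1 with which groups that do not differ separate. TRAJ5 held 15.4%, 5.81% and 20.8% of TRA counts in control and 0.757%, 0.981% and 3.52% in BGB-283 (log2 -3.00, SE 1.29, edgeR adjusted p = 0.174). By clonotype number it made up 7.55%, 5.70% and 6.29% in control and 1.14%, 1.24% and 2.19% in BGB-283 (log2 -2.05, SE 0.80, edgeR adjusted p = 0.157). With near copies removed that difference was -1.41 (edgeR adjusted p = 0.0608), and 30 of the 43 TRAJ5 clonotypes of control library 3 had the TRAV13D-1 pair of its leader. That leader was 90.5% of the TRAJ5 counts of the library, while in control library 1 the largest TRAJ5 clonotype was 29.0% of them. At D11 TRAJ5 made up 0.904% and 1.23% of TRA clonotypes in the control libraries and 7.77%, 0.356% and 2.13% in the BGB-283 libraries. The test of the D4 difference against the D11 difference gave -3.49 (unadjusted p = 0.0179, edgeR adjusted p = 0.272 over TRAJ segments).

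TRAJ18 is the J segment of the invariant natural killer T (iNKT) cell receptor, which recognises lipids presented by CD1d. It held 0.0437%, 0.252% and 0.237% of TRA counts in control and 1.65%, 0.822% and 2.03% in BGB-283 (log2 3.07, SE 1.06, edgeR adjusted p = 0.126, DESeq2 adjusted p = 0.00720). It was found in 1, 4 and 10 clonotypes in control and 17, 23 and 25 in BGB-283, or 0.377%, 0.95% and 1.46% of TRA clonotypes against 2.16%, 2.04% and 2.19% (log2 1.01, SE 0.46, edgeR adjusted p = 0.231). Part of these counts was the iNKT chain. TRAV11 names joined to TRAJ18, the invariant combination, were listed at 0, 0.209% and 0 of TRA counts in control and at 0.710%, 0.0766% and 0.264% in BGB-283 (exact permutation p = 0.2). All 3 treated libraries and 1 of 3 controls were above 0, and the entries found were 1 CDR3 of 15 residues under 3 V names. That CDR3 under TRAV11N was listed in 20 of all 23 libraries. In control library 2 it made up 82.7% of the TRAJ18 counts. A TRAV15N-2 clonotype with TRAJ18 made 1.10% of TRA counts in BGB-283 library 3.

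Beta segments that usually pair with the iNKT alpha chain, TRBV13-1, TRBV13-2, TRBV13-3, TRBV29 and TRBV1, held 11.9%, 14.7% and 15% of TRB counts in control and 22.4%, 15.3% and 14.8% in BGB-283, which overlap. The TRBV13 family alone, or Vbeta8, held 9.57%, 9.01% and 7.15% against 8.17%, 7.45% and 6.98%. TRAV1 with TRAJ33, the alpha chain of mucosal-associated invariant T (MAIT) cells, was listed at 0 in all 6 libraries.

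**Figure D5:**
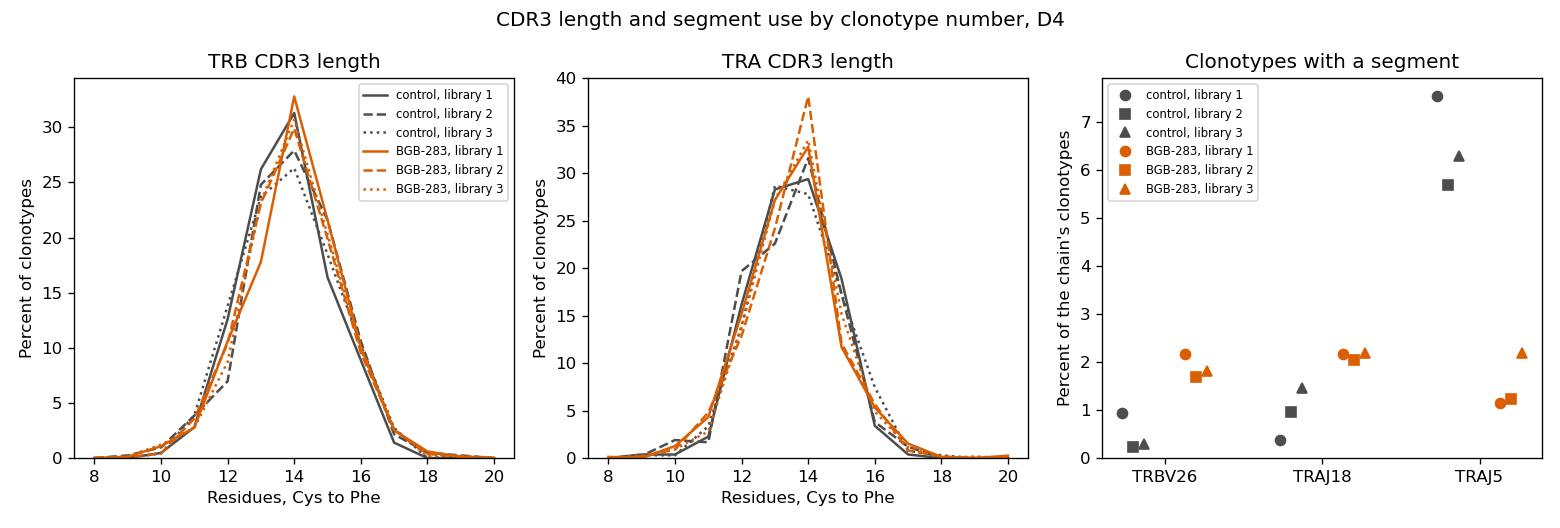
Percent of clonotypes by CDR3 length in residues for TRB (left) and TRA (middle), one line per D4 library, and percent of the chain's clonotypes that use TRBV26, TRAJ18 or TRAJ5 (right), one point per library. The BGB-283 points lie above the control points for TRBV26 (1.68% to 2.16% against 0.240% to 0.935%) and TRAJ18 and below them for TRAJ5, and the TRA lines part at 14 and 15 residues.

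Other alpha segments with the smallest p by counts are given next. TRAV14-3 held 0.131%, 0.520% and 0.247% in control and 11.4%, 1.30% and 0.692% in BGB-283 (log2 3.90, SE 1.23, edgeR adjusted p = 0.260), and its leading clonotype with TRAJ17 was 10.2% of BGB-283 library 1. TRAV7N-6 held 1.02%, 1.55% and 2.56% against 0.137%, 0.0404% and 0.170% (log2 -3.88, SE 1.44, edgeR adjusted p = 0.260), without overlap and with 2, 8 and 15 clonotypes against 5, 12 and 16. Lack of overlap by counts was found in 12 of 118 TRAV segments (10.2%), so it is not particular to TRAV7N-6. TRAV4-3V4D-3 was listed at 0 in control and at 0.0590%, 0.0248% and 0.00106% in BGB-283. TRAJ42 held 2.90%, 0.425% and 1.34% in control and 0.892%, 50.9% and 1.21% in BGB-283, and without BGB-283 library 2 its difference turned from 3.51 to -0.56 on the log2 scale. TRAJ33 held 0.461%, 0.563% and 17.4% against 0.760%, 0.389% and 0.505%, and TRAJ39 8.68%, 0.374% and 1.37% against 0.583%, 0.302% and 0.613%. TRAJ56 held 0.0197%, 0.224% and 0.102% against 0.527%, 0.386% and 1.12%, which do not overlap (log2 2.56, SE 1.05, edgeR adjusted p = 0.174). By mean share the leading TRAV name was TRAV7D-2 in control (10.3%, 19.9% and 6.37%) and TRAV14-2V14N-2 in BGB-283 (6.45%, 55.1% and 4.58%).

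No single V-J pair passed by counts. A few passed with each clonotype counted once, as given with the other settings at the end. Among 264 TRB pairs tested by counts, 0 passed edgeR's test (0% called), 44 had an unadjusted p under 0.05 and DESeq2 called 42. The groups did not overlap in 31 pairs (11.7%), 30 of them higher in BGB-283. Groups that do not differ separate with a probability of 0.1 where no values tie. A pair listed at 0 in libraries of both groups cannot separate. The probability is therefore lower for pairs, and it was not computed. A library with more clonotypes fills more pairs, and the part of richness in this direction was not tested. Among 1941 TRA pairs, 0 passed (0% called), 214 had an unadjusted p under 0.05 and DESeq2 called 238, with 56 pairs (2.89%) not overlapping, 50 of them higher in BGB-283. The smallest p among TRB pairs was that of TRBV23 with TRBJ2-7, at 0, 0 and 0.00161% in control and 8.20%, 0.0439% and 0.0497% in BGB-283. TRBV26 gave both of the next pairs: with TRBJ1-3 it was listed at 0 in control and at 0.148%, 0.0658% and 0.105% in BGB-283, and with TRBJ1-2 at 0 and at 0.371%, 0.0681% and 0.114%. Those pairs rested on 2 to 4 clonotypes per treated library. Among lower pairs, TRBV12-2 with TRBJ2-4 held 10%, 2.61% and 0.0771% against 0.263%, 0.181% and 0.255%. In TRA, TRAV14-2V14N-2 with TRAJ15 was listed at 0 in control and in BGB-283 library 2, and held 4.57% and 1.49% of libraries 1 and 3.

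Mean CDR3 length overlapped between the groups in both chains. Mean TRB length per clonotype was 13.77, 13.95 and 13.82 residues in control and 14, 13.92 and 13.95 in BGB-283, a difference of 0.110 (SE 0.0604, exact permutation p = 0.3). Mean TRA length was 13.53, 13.53 and 13.66 against 13.54, 13.60 and 13.62, a difference of 0.0148 (SE 0.0503, exact permutation p = 0.8). The SD of TRA length over clonotypes was 1.27, 1.32 and 1.32 residues in control and 1.48, 1.73 and 1.32 in BGB-283. Each BGB-283 library held 1 very long CDR3, of 29, 52 and 25 residues in libraries 1 to 3. These were 0.0874%, 0.00279% and 0.0332% of TRA counts, and the SD without them was not computed. None of 9 TRB length classes passed edgeR's test on clonotype numbers (0% called, smallest adjusted p = 0.546, 0 at an unadjusted p under 0.05).

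In TRA, 2 of 8 length classes passed (25% called). CDR3s of 14 residues made up 29.4%, 31.6% and 27.8% of clonotypes in control and 32.8%, 38.1% and 33.5% in BGB-283, and rose by 0.25 on the log2 scale (SE 0.09, edgeR adjusted p = 0.0458). CDR3s of 15 residues made up 18.9%, 17.3% and 17.3% in control and 11.7%, 12.1% and 15.2% in BGB-283, and fell by 0.43 (SE 0.16, edgeR adjusted p = 0.0458). TRAJ5 moved with the longer class: of the 15-residue clonotypes, 20 of 50, 22 of 73 and 37 of 118 used TRAJ5 in control, against 6 of 92, 11 of 136 and 21 of 174 in BGB-283. Without TRAJ5 clonotypes, the 15-residue class was 12.2%, 12.8% and 12.6% in control and 11.1%, 11.2% and 13.7% in BGB-283 (log2 -0.06, SE 0.17, edgeR adjusted p = 0.735), and the 14-residue class gave 0.19 (SE 0.09, adjusted p = 0.178). Both calls were also lost with near copies removed (0.09 and -0.16, adjusted p = 0.546 for each), with the replicate number as a block (adjusted p = 0.0597 for each), and without control library 1, control library 3 or BGB-283 library 2 (edgeR adjusted p from 0.0784 to 0.274). The 15-residue call was lost without control library 2 (0.101) or BGB-283 library 1 (0.165) as well.

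Hardly any receptor was found in more than one library. Of 4770 TRB clonotypes, 98.7% were listed in 1 of the 6 libraries, and of 4285 TRA clonotypes 97.4%. Both groups held 31 TRB clonotypes, which is 2.37% of those in control and 0.888% of those in BGB-283, and 65 TRA clonotypes, or 4.81% and 2.17%. At least 2 libraries of the same group shared 15 TRB clonotypes in control and 27 in BGB-283, and 17 and 52 TRA clonotypes. Richer libraries have more clonotypes to share, and these counts were not thinned.

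The clonotypes in 4 or more of the 6 libraries were 3 of TRB and 7 of TRA. Those of TRB are shown because they are the most widely shared of the 62 TRB clonotypes found in 2 or more libraries.
TRBV13-2 with TRBJ1-1: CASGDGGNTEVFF
TRBV12-2 with TRBJ2-5: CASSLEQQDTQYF
TRBV19 with TRBJ2-4: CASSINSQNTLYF
The first was listed at 1.1%, 0.117% and 0.181% in control and at 0, 0.0412% and 0.550% in BGB-283. The next held 0, 0.0664% and 0.152% in control and 0.863%, 0.0909% and 0.484% in BGB-283. The last held 0, 0 and 0.242% in control and 0.290%, 0.142% and 2.73% in BGB-283. They were listed in 15, 12 and 13 of all 23 libraries, so they recur under other treatments too. Among the TRA clonotypes, TRAV14-2V14N-2 with TRAJ22 was in 5 of the 6 libraries and 20 of 23, at 0, 0.353% and 0.0581% in control and 0.0250%, 0.0276% and 0.125% in BGB-283. TRAV12N-3 with TRAJ11, whose CDR3 is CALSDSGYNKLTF, held 0.760%, 2.82% and 5.30% in control and 0, 0 and 0.575% in BGB-283.

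At D11 the 2 control and 3 BGB-283 libraries gave a mean of 523.5 and 888.7 TRB clonotypes (log2 0.79) and of 573.5 and 895 TRA clonotypes (log2 0.71), and the groups overlapped in both chains. The D4 difference in TRB clonotypes exceeded that at D11 by 0.75 on the log2 scale (permutation of treatment within day, 200 permutations, p = 0.515), and in TRA p was 0.570. D11 had 2 control libraries.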

How the data were processed

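Libraries were made from RNA with a QIAseq immune repertoire kit, per the labels' protocols. The authors deposited counts per chain, V, J and CDR3, not scaled between libraries. GRCh38, an assembly of the human genome, is the build in the submitters' processing notes. The aligner and receptor caller were not given in the sources used here. Entries with an unresolved CDR3 residue (274 of 64710, 0.0126% of counts in the 6 libraries) were left out. The lowest count listed is 3, so absent receptors are given as listed at 0. Richness was thinned over 100 seeded draws. Measures were compared by exact permutation, with Benjamini-Hochberg adjustment over 60. Usage was tested with edgeR 4.0.16 (quasi-likelihood, filterByExpr, chain totals as library size, all 8 groups of 23 libraries), with DESeq2 1.42.0, TMM, no filter, estimated molecules, each clonotype counted once, a replicate block and leaving out each library as alternatives. Functions were tested on simulated data. Named segments and pairs were those past the threshold, the 3 smallest p in each direction where under 5 passed, and the 3 highest means per group; named clonotypes led a library or were in 4 of 6. TRBV26, TRAJ5 and TRAJ18 were detailed after their values were seen. Members and lists were chosen with earlier results of these data known.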

Additional observations from a re-analysis of the deposited data

Results flagged for a closer look

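The D4 difference was tested against that at D11. Among the 60 repertoire measures, an unadjusted p under 0.05 singled out both CDR3 length measures below, which did not pass after adjustment. By counts, 1 of 264 TRB V-J pairs and 0 of 1941 TRA V-J pairs passed edgeR's test between days. No V or J segment of either chain passed it. Mean TRB CDR3 length per clonotype was 0.110 residues higher in BGB-283 than in control at D4 and 0.191 lower at D11 (difference between days 0.301, permutation of treatment within day p = 0.0150, adjusted p = 0.9 over 60 measures). For TRB clonotypes under 0.1% of counts the difference between days was 0.299 residues (permutation p = 0.0300, adjusted p = 0.9). TRBV20 with TRBJ2-3 had a difference between days of 24.94 on the fitted log2 scale (edgeR adjusted p = 0.0407), whose size depends on the prior count: among the D4 and D11 libraries of both groups it was listed in BGB-283 D4 library 3 (0.708% of TRB counts, 3 clonotypes) and control D11 library 1 (1.86%, 1 clonotype) and at 0 in the others.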

How the results depend on the processing

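With 3 libraries a group, the exact tests of repertoire measures cannot pass 0.05, so the settings below compare directions and values. Repertoire measures were compared by the sign of the difference. Usage and length classes were compared by the number of calls, whichever features were called. Among other settings for the main comparisons, 116 kept their sign or a like number of calls, 14 moved to a different number and 2 reversed in sign. Among fits without 1 library, 98 kept, 11 moved and 11 reversed. Clonotypes of over 20 estimated molecules, the alternative to the class of 1% or more, gave differences of 3.67 in TRB and 16.3 in TRA. The class of 1% or more gave -5.00 and -2.33, so both signs reversed. Classes by molecules grow with depth, unlike those by share, and the groups overlapped under both definitions. DESeq2 called 3 TRBV, 12 TRAV and 2 TRAJ segments and 42 TRB and 238 TRA V-J pairs, against 0 by edgeR; the cause was not tested. With each clonotype counted once, edgeR called 2 of 20 TRBV and 1 of 56 TRAV segments, and 1 of 21 TRBV segments with near copies removed. It also called 2 TRB and 1 TRA pairs with each clonotype counted once. The number of pairs tested in that setting is not given here. Calls among TRA length classes went from 2 to 0 with a replicate block, with near copies removed, without TRAJ5 and with each CDR3 counted once whatever its V name. Without 1 library, the difference ran from -13.5 to 0.642 points for the 10 largest TRB clonotypes and from -8.33 to 2.97 for those of TRA. For clonotypes holding 50% of counts it ran from -0.31 to 1.45 (TRB) and -0.81 to 0.64 (TRA) on the log2 scale, and for mean TRA length from -0.00874 to 0.0595 residues. Without 1 library, calls ran from 0 to 1 (TRBV), 0 to 3 (TRBJ), 0 to 1 (TRAV), 0 to 2 (TRAJ), 0 to 2 (TRB pairs) and 0 to 3 (TRA lengths). Richness kept its direction, at 1.09 to 1.94 in TRB and 0.90 to 1.59 in TRA. Ranges of log2 usage that crossed 0 were -1.68 to 5.38 for TRBV23, -2.50 to 0.58 for TRBJ1-5, -1.30 to 0.12 for TRBJ1-2, -0.56 to 4.32 for TRAJ42 and -4.03 to 0.11 for TRAJ33. TRBJ1-2 was 0.34 with each clonotype counted once. The shared replicate numbers were not taken as pairing: same-numbered libraries correlated at 0.0203, 0.627 and -0.309 in TRB and -0.180, -0.00961 and 0.0340 in TRA. With the replicate block, the TRB clonotype difference was 1.53 (sign-flip permutation p = 0.25, the smallest it can give). TRAV7-5 with TRAJ39, TRAV5D-4V5N-4 with TRAJ28 and TRAV7N-4 with TRAJ28 have no value where their only library is left out. Depth limits the class under 0.01% most.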
